A study of Mus musculus with 8 samples.

Results

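Calcium handling genes of the cardiomyocyte were examined in ventricular tissue of tumor-bearing and control mice. The 10 genes were chosen by symbol, as genes of known role: Cacna1c, Slc8a1, Ryr2, Casq2, Srl, Jph2, Atp2a2, Pln, Sln and Camk2d, out of 43346 genes in the deposited count table. Each symbol matched 1 row. Of the 10, 9 had enough counts to be tested and Sln did not.

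Contraction of a heart muscle cell starts when the L-type calcium channel of the cell membrane opens and lets in a small amount of calcium. That calcium opens the ryanodine receptor of the sarcoplasmic reticulum (SR), the internal calcium store, and the released calcium activates the myofilaments. Relaxation follows when the SERCA pump returns calcium to the SR, under the brake of phospholamban and sarcolipin, and when the sodium/calcium exchanger moves calcium out of the cell.

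All animals were male C57BL/6 mice injected at 7 weeks of age, from which heart tissue was taken 14 days later. Tumor-bearing mice (n = 4, LLC1-2, LLC1-3, LLC1-5 and LLC2-2) received 1000000 LLC1 cells, an established mouse lung carcinoma line. Control mice (n = 4, PBS1-1, PBS1-3, PBS2-1 and PBS2-5) received PBS vehicle. Ventricular mRNA was sequenced and reads were counted per gene.

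Libraries held between 12480706 and 19747596 counts, and levels below are TMM-normalized counts per 1000000 counts (CPM). The ventricular marker Myl2 lay between 6430.1 and 8641 CPM. Atrial Myl7 reached at most 2.04 CPM, atrial Bmp10 had 0 counts in every mouse, and 7 skeletal muscle markers summed to between 2.83 and 4.14 CPM. PBS1-1 stood apart from the other 7 mice on the second principal component (25.2% of variance), at 35.3 against -23.3 to 8.71, and its Ttn level was 18482 CPM against 7893 to 9030.4 CPM in the others. Without this mouse the log2 fold change of Camk2d was -0.056, that of Slc8a1 0.20, the log2 ratio of Casq2 over Ryr2 0.026 and that of Cacna1c over Slc8a1 0.068.

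Of the 9 tested genes, only Cacna1c, the pore-forming subunit of the L-type channel, differed between the groups at an adjusted p under 0.05. It was higher in tumor-bearing mice. In the same test 8.73% of all 16111 genes passed, 4.12% of them higher and 4.61% lower in tumor-bearing mice, so that 1 call among 9 genes is near that background. The median log2 fold change was 0.035 over the 9 genes and -0.010 over all genes tested. The tissue was bulk ventricle, in which fewer cells of a type and less RNA per cell cannot be told apart.

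**Figure D1:**
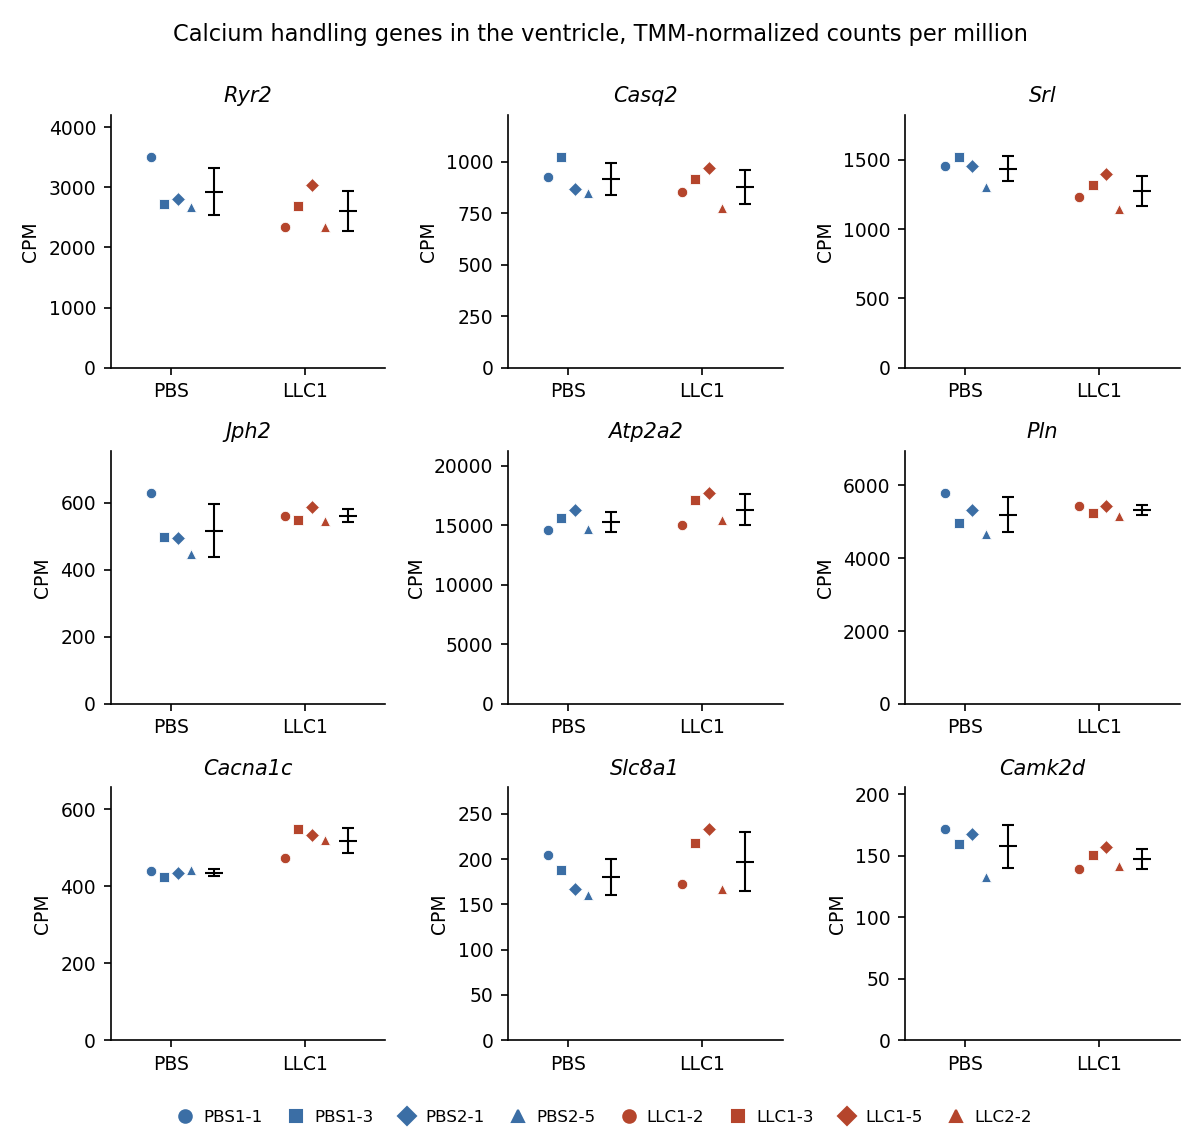
TMM-normalized CPM (y axis, linear from 0) of the 9 tested calcium handling genes in each PBS-injected (blue) and LLC1-injected (red) mouse, with the mean and SD of the 4 mice of a group in black. For Cacna1c the LLC1 mice sit at 472 CPM or more and the PBS mice at 443 CPM or less, and PBS1-1 is the highest PBS mouse for Ryr2, Jph2, Pln, Slc8a1 and Camk2d.

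Cacna1c (mm10 chr6:118587240-119196418, minus strand) measured 472, 547, 532 and 519 CPM in LLC1-2, LLC1-3, LLC1-5 and LLC2-2. It measured 439, 423, 434 and 443 CPM in PBS1-1, PBS1-3, PBS2-1 and PBS2-5. The PBS mice were tightly grouped and lay below every LLC1 mouse. Group means were 518 ± 32.3 CPM (SD, n = 4) and 435 ± 8.73 CPM (SD, n = 4), a 1.19-fold difference with a 95% interval of 1.08 to 1.31. The log2 fold change was 0.25 (SE 0.063) with an edgeR quasi-likelihood adjusted p of 0.0294, and the exact two-sided permutation p was 0.0286, the smallest that 4 against 4 mice can give. Groups that do not overlap were seen for 17.2% of all genes tested.

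The Cacna1c call depended on how libraries were scaled. The 10 cardiomyocyte markers summed to between 117448 and 124770 CPM in LLC1 mice and to between 107159 and 118747 CPM in PBS mice. Of the 10, 2 were called higher, Myh6 and Mybpc3. In all 7 were positive and 3 negative, Actc1 (-0.054), Tpm1 (-0.024) and Ttn (-0.36). Myh6 was the largest part of the sum, at 53471 to 56459.5 CPM in LLC1 mice and 44721 to 47606 CPM in PBS mice. The groups overlapped in this sum through the Ttn level of PBS1-1, and the 9 markers other than Ttn summed to between 109555 and 115740 CPM in LLC1 mice and to between 98898 and 100265 CPM in PBS mice. When libraries were scaled to the counts of the 10 markers, the Cacna1c log2 fold change was 0.12 (adjusted p = 0.277), on a scale where the median of all genes was -0.14. Scaled to the 9 other than Ttn, a choice made after seeing the data, it was 0.077 (adjusted p = 0.415) with a median of -0.19. With total counts alone it was 0.20 (adjusted p = 0.126), where the median of all genes was -0.065. Its distance above the median of all genes was 0.26 on each of these scales and under TMM. A change of scaling moves all genes by nearly the same amount, so this distance was bound to stay and is no support for the call. With 1 mouse left out the Cacna1c log2 fold change stayed positive, between 0.22 and 0.29. It passed in 3 of 8 such fits, those without LLC1-2, PBS1-1 or PBS2-5.

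Sequence is shown for Cacna1c, the called gene, for Ryr2, the channel that its current opens, and for Casq2 and Slc8a1, as examples of windows that overlap no annotated exon and hold a match to a motif of cardiac transcription factors. The 250 bases upstream of an annotated RefSeq start were read for 7 of the 10 genes (10 windows, GRCm38.p6, the assembly of mm10), and windows of Sln, Atp2a2 and Srl were not analysed here. Each window is printed 5′ to 3′ on the strand of its gene, with capitals for motif matches on either strand.
Cacna1c, chr6:118757975-118758224, minus strand, within the gene and between its annotated exons: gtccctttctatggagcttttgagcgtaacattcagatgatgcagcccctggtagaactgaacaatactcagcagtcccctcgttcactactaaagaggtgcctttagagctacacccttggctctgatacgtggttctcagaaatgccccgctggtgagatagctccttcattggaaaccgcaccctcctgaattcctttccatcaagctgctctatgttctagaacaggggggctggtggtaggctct
Ryr2, chr13:12106946-12107195, minus strand, upstream of the gene: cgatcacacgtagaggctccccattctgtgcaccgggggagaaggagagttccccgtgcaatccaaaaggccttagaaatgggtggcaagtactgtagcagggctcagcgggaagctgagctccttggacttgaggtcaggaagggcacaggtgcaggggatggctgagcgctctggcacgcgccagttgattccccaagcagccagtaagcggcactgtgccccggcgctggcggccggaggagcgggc
Casq2, chr3:102086165-102086414, plus strand, upstream of the gene: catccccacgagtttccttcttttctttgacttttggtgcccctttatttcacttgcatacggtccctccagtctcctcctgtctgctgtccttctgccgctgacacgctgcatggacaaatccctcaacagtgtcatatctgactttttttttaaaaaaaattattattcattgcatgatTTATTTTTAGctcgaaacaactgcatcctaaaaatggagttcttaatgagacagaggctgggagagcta
Slc8a1, chr17:81738388-81738637, minus strand, upstream of the gene: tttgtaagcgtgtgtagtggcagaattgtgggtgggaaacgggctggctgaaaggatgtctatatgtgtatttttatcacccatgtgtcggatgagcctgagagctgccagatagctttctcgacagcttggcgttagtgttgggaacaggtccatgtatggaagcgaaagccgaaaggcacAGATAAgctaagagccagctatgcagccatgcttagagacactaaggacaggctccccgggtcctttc
Matches were sought to the motif of the basal promoter, TATAAA, to that of cardiac zinc-finger factors, AGATAA, to that of TEAD factors, CATTCC, to that of Sp1, GGGCGG, and to the MEF2 and CArG motifs. Casq2 held the MEF2 motif at -69 from its start, a motif found in 2.92% of all 32851 windows. Slc8a1 held AGATAA at -68, found in 9.99% of windows, while the Cacna1c and Ryr2 windows printed above held none of these motifs. The Pln window, which overlaps an annotated exon and is not printed, held AGATAA at -183 and TATAAA at -219, the latter found in 12.4% of windows. Another of the 3 Cacna1c windows was 82.8% G and C, above 99.5% of all windows, and held GGGCGG at 6 positions, some of them overlapping, a motif present in 32.7% of windows. CANNTG, which is not capitalized, occurred in 66.2% of windows.

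Slc8a1 (chr17:81388691-81649607), the sodium/calcium exchanger that extrudes calcium, measured 172, 217, 233 and 166 CPM in LLC1-2, LLC1-3, LLC1-5 and LLC2-2. PBS1-1, PBS1-3, PBS2-1 and PBS2-5 were at 205, 188, 167 and 160.5 CPM. LLC1-3 and LLC1-5 were above all PBS mice and the other LLC1 mice lay among them, with a log2 fold change of 0.13 (SE 0.11, adjusted p = 0.506). The row counted in the table is 2934 bases long and begins 88780 bases downstream of the RefSeq start whose promoter is printed above, so these counts cover part of the gene.

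Ryr2 (chr13:11553103-12106945), the SR calcium release channel, measured 2336, 2692, 3044 and 2340.0 CPM in LLC1-2, LLC1-3, LLC1-5 and LLC2-2. PBS1-1 stood at 3504 CPM, and PBS1-3, PBS2-1 and PBS2-5 at 2723, 2805 and 2679 CPM. The groups overlapped because LLC1-3 and LLC1-5 reached the level of the PBS mice. The log2 fold change was -0.17 (SE 0.11, adjusted p = 0.351), and -0.071 (adjusted p = 0.653) without PBS1-1.

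Casq2 (chr3:102086415-102146514), the calcium-binding protein calsequestrin of the SR lumen, measured 856, 916, 970.3 and 776 CPM in LLC1-2, LLC1-3, LLC1-5 and LLC2-2. The corresponding levels in PBS1-1, PBS1-3, PBS2-1 and PBS2-5 were 926, 1025, 867 and 848 CPM. The ranges overlapped over most of their length and the log2 fold change was -0.059 (SE 0.085, adjusted p = 0.703). Srl (chr16:4480216-4541816), which encodes sarcalumenin, another calcium-binding protein of the SR lumen, measured 1234, 1316, 1399 and 1149 CPM in the LLC1 mice and 1454, 1521, 1459 and 1306 CPM in the PBS mice, in the same order of animals. LLC1-2 and LLC2-2 were below all PBS mice and the other LLC1 mice fell within the PBS range. Its log2 fold change was -0.17 (SE 0.077), with an unadjusted p of 0.0456 and an adjusted p of 0.186 by the edgeR test.

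Jph2 (chr2:163336242-163397993) encodes junctophilin, which holds the SR against the T-tubule so that the L-type channel faces the ryanodine receptor. It measured 559.8, 549, 589 and 547 CPM in LLC1-2, LLC1-3, LLC1-5 and LLC2-2, a narrow range. PBS1-1 was the highest of all mice at 629 CPM, and PBS1-3, PBS2-1 and PBS2-5 lay below every LLC1 mouse at 499.5, 495 and 447 CPM. The log2 fold change was 0.12 (SE 0.093, adjusted p = 0.462) with all mice and 0.23 (adjusted p = 0.0359) without PBS1-1, the only left-out mouse that brought Jph2 past the threshold.

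**Figure D2:**
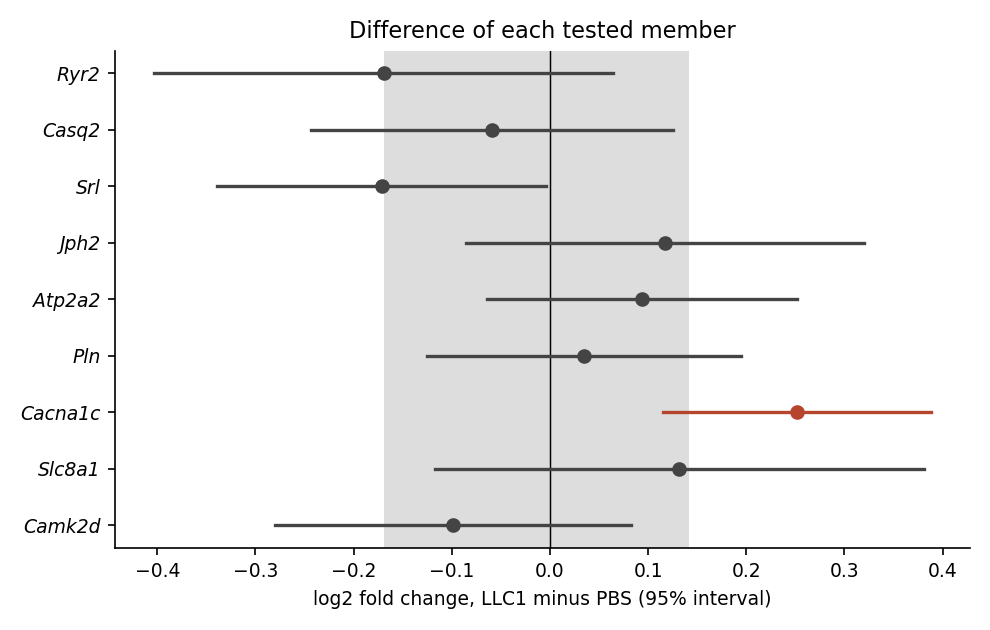
Log2 fold change, LLC1 minus PBS (x axis), of each tested gene with its 95% interval, in red where the adjusted p was under 0.05, over a grey band from the 25th to the 75th percentile of all genes tested (-0.17 to 0.14). The interval of Cacna1c lies above 0 (0.12 to 0.39), and that of Srl ends just below 0 (-0.0039) without passing adjustment.

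The genes of calcium reuptake did not pass the test. Atp2a2 (chr5:122442702-122502225), the SERCA pump of the heart, measured 15056, 17123, 17717 and 15434 CPM in LLC1-2, LLC1-3, LLC1-5 and LLC2-2 and 14607, 15599, 16321 and 14689 CPM in PBS1-1, PBS1-3, PBS2-1 and PBS2-5. LLC1-3 and LLC1-5 were the highest of all mice, and the log2 fold change of 0.094 (SE 0.072, adjusted p = 0.450) had a 95% interval from -0.064 to 0.25. Pln (chr10:53337686-53345999), whose product phospholamban inhibits SERCA until it is phosphorylated, measured 5447, 5231, 5439.6 and 5162 CPM in the LLC1 mice and 5788, 4981, 5333 and 4672 CPM in the PBS mice. The LLC1 values lay within the range of the PBS values, with a log2 fold change of 0.035 (SE 0.073, adjusted p = 0.808) and an interval of -0.13 to 0.19. An antisense transcript, Gm47644, shares 1644 bases with Pln exons in a later annotation, and whether counting used strand is not given in the sources used here.

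Sln (chr9:53850251-53853844) encodes sarcolipin, a SERCA inhibitor that in the mouse heart is known mainly from the atria. It had 1, 0, 0 and 1 counts in LLC1-2, LLC1-3, LLC1-5 and LLC2-2 and 0, 2, 6 and 0 counts in PBS1-1, PBS1-3, PBS2-1 and PBS2-5. Only PBS2-1 exceeded 3 counts, and no difference could be tested at this depth, where 3 counts correspond to between 0.151 and 0.257 CPM. Of 5 atrial markers Bmp10 was at 0, Myl7 and Myl4 were at or below 2.94 CPM and Sbk2 was at 8.35 to 11.9 CPM, while their sum, between 122 and 347 CPM, was mostly Nppa, which ventricles also express.

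Camk2d (chr3:126596302-126844913), the kinase that phosphorylates the ryanodine receptor and phospholamban, measured 139, 151, 158 and 142 CPM in LLC1-2, LLC1-3, LLC1-5 and LLC2-2. PBS1-1, PBS1-3 and PBS2-1 were higher at 172, 159 and 168 CPM, and PBS2-5 was the lowest of all mice at 133 CPM. The log2 fold change was -0.099 (SE 0.083, adjusted p = 0.492).

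The scaling by cardiomyocyte markers gave a different set of calls. With it 2 genes passed, both lower in tumor-bearing mice: Ryr2 at -0.30 (adjusted p = 0.0481) and Srl at -0.31 (adjusted p = 0.0241). Relative to the median of all genes, which was -0.14 on that scale and -0.010 under TMM, Ryr2 lay at -0.15 and Srl at -0.16, against -0.16 and -0.16 under TMM. Jph2, Atp2a2 and Pln were at -0.0096, -0.042 and -0.096 there, each above that median as they were under TMM, and none of the 3 passed under either scaling. These positions against the median stay nearly the same by construction, because a change of scaling moves all genes alike. With the 9 markers other than Ttn, 4 genes passed, all lower: Ryr2 (-0.35, adjusted p = 0.0298), Srl (-0.35, 0.00737), Camk2d (-0.28, 0.0336) and Casq2 (-0.24, 0.0498), where the median of all genes was -0.19 and 24.7% of all genes passed, against 14.9% with the 10 markers.

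**Figure D3:**
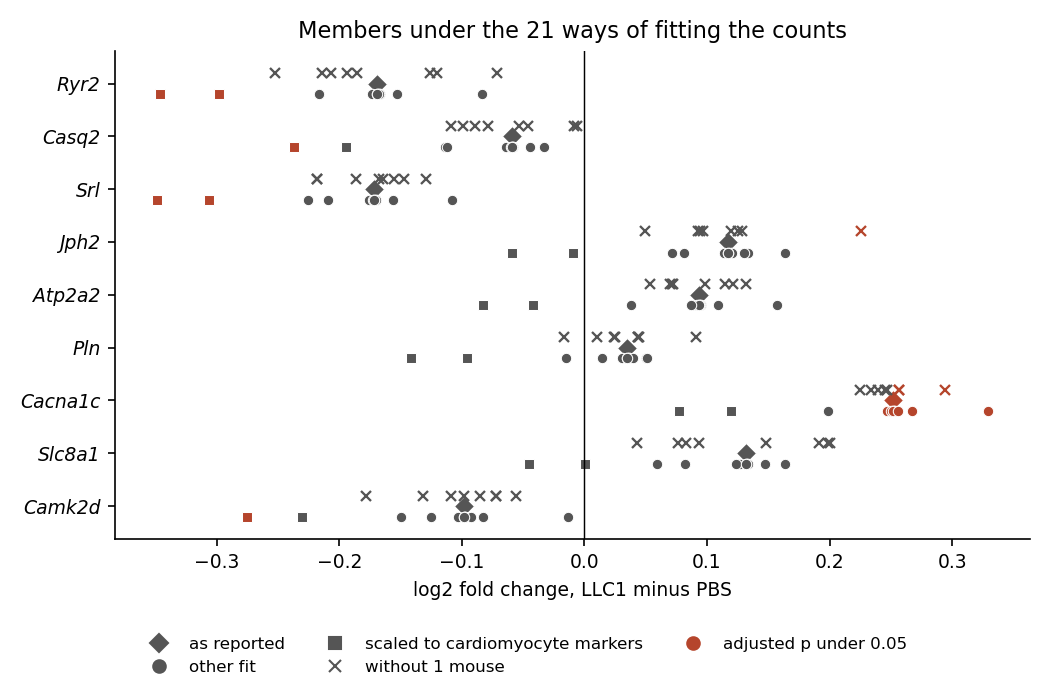
Log2 fold change, LLC1 minus PBS (x axis), of the 9 genes as reported (diamonds), under other fits of all 8 mice (circles), scaled to cardiomyocyte markers, with and without Ttn (squares) and with 1 mouse left out (crosses), in red where the adjusted p was under 0.05. Cacna1c stays above 0 in the 20 other fits (0.077 to 0.33), Ryr2 and Srl stay below 0, and Pln lies on both sides.

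Ratios of counts within a mouse do not depend on library scaling, and 6 of 7 planned ratios could be formed, the one with Sln having too few counts. Jph2 over Ryr2, the tether relative to the release channel, was 0.240, 0.204, 0.194 and 0.234 in LLC1-2, LLC1-3, LLC1-5 and LLC2-2. It was 0.180, 0.183, 0.176 and 0.167 in PBS1-1, PBS1-3, PBS2-1 and PBS2-5, and here PBS1-1 was like the other PBS mice. Every LLC1 mouse was above every PBS mouse, the difference was 1.23-fold, and the exact permutation p was 0.0286 (0.0857 adjusted over the 6 ratios).

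Srl over Casq2, 2 calcium-binding proteins of the SR lumen, was 1.44, 1.44, 1.44 and 1.48 in the LLC1 mice and 1.57, 1.48, 1.68 and 1.54 in the PBS mice. The LLC1 ratios were nearly equal and all lower, though the closest pair, LLC2-2 and PBS1-3, differed by little, and the fold was 0.925 with the same exact p of 0.0286 (0.0857 adjusted). The other ratios overlapped between the groups, with exact permutation p-values from 0.371 to 0.60. Pln over Atp2a2, the inhibitor relative to its pump, was 0.327 ± 0.0266 in LLC1 mice (SD, n = 4) and 0.340 ± 0.0376 in PBS mice (SD, n = 4). Cacna1c over Slc8a1, entry relative to extrusion, was 2.67 ± 0.356 in LLC1 mice and 2.44 ± 0.288 in PBS mice (SD, n = 4 each). No ratio passed after adjustment, and 4 against 4 mice allow no smaller p than 0.0286.

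**Figure D4:**
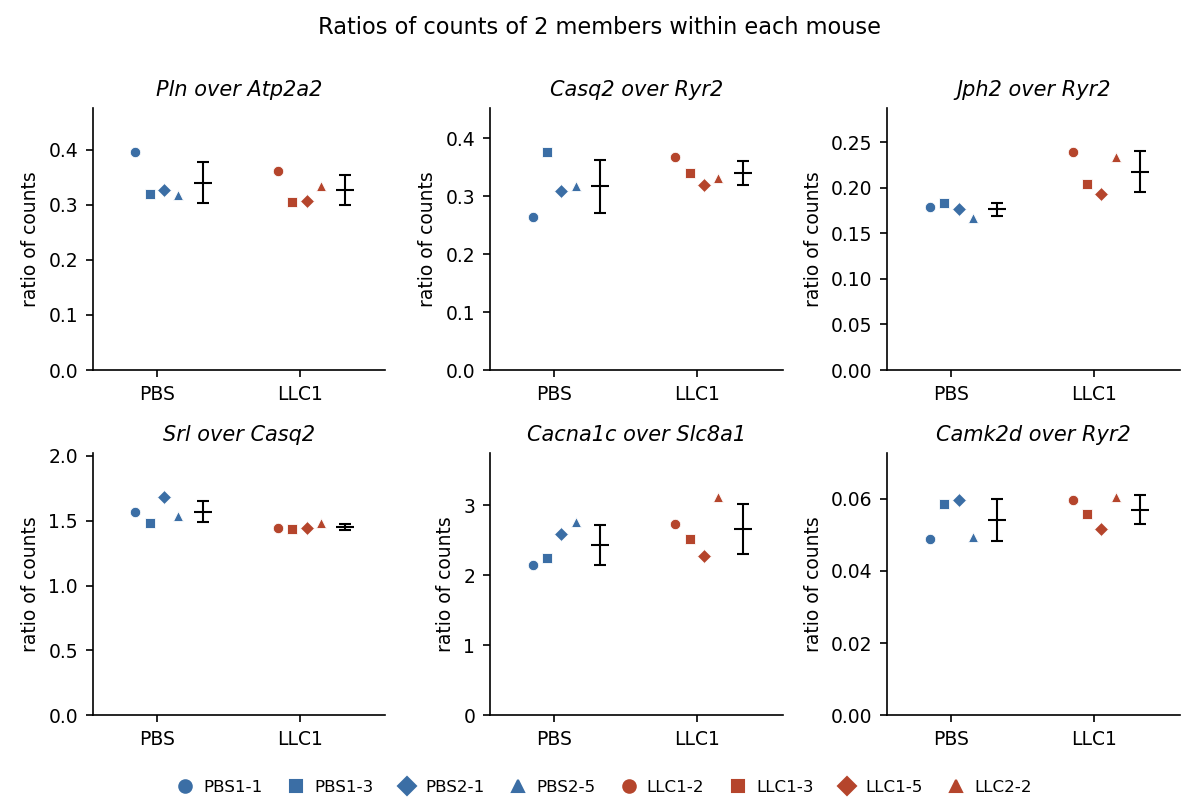
Ratio of the counts of 2 genes (y axis, linear from 0) in each PBS-injected (blue) and LLC1-injected (red) mouse, with mean and SD of 4 mice in black. The groups do not overlap for Jph2 over Ryr2 (0.194 to 0.240 against 0.167 to 0.183) and for Srl over Casq2 (1.44 to 1.48 against 1.48 to 1.68).

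Levels of different genes were compared as CPM per kilobase of the gene length in the table. Atp2a2 was the most abundant, at 3086 ± 243 in LLC1 mice and 2891 ± 154 in PBS mice (SD, n = 4 each), followed by Pln at 2145 ± 58.6 and 2094 ± 193. Casq2 (322 and 335), Srl (239 and 270), Ryr2 (155 and 174), Jph2 (132 and 122), Slc8a1 (67.2 and 61.4), Cacna1c (24.4 and 20.5), Camk2d (9.25 and 9.91) and Sln came next, in means of LLC1 and PBS mice. The order was the same in both groups, and in neither did the ranges of any 2 neighbours overlap. It rests on the lengths used: with the longest annotated transcript in place of the table's length, the first 6 genes and Sln kept their ranks, and Cacna1c, Camk2d and Slc8a1 followed each other at 33.0, 28.6 and 9.75 in PBS mice. For Slc8a1 that transcript has 18464 bases, while its counts come from a row of 2934 bases. The value of 9.75 is therefore too low for it, and its lower rank follows from this mismatch.

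By level per length, each gene with a family, other than Camk2d, was its main form in these ventricles. On that scale Ryr2 made up 99.9% of the 3 ryanodine receptors and Atp2a2 99.9% of the 3 SERCA pumps in both groups. Casq2 made up 97.2% of calsequestrin in both groups, Jph2 96.3% of junctophilins in LLC1 mice and 96.4% in PBS mice, and Slc8a1 99.5% and 99.3% of its exchangers. Camk2d took 24.6% of the CaMKII genes per length in LLC1 mice and 26.3% in PBS mice, where Camk2g took 47.1% and 46.9%. By counts Camk2d was the largest of the 4, at 50.1% and 52.4%, so its place rests on the table's length for it of 15928 bases. The lowest exact permutation p of the 7 family shares was 0.0286, for Slc8a1, and 0.20 after adjustment over the families.

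The skeletal muscle forms Ryr1, Atp2a1 and Casq1 lay between 0.172 and 25.4 CPM, and Ryr3 and Atp2a3 between 1.68 and 18.7 CPM. Jph3, Jph4, Slc8a2, Slc8a3 and Cacna1f each stayed below 2 CPM.

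Cacna1s, the pore-forming L-type subunit of skeletal muscle, was the only paralog that was called. It measured 23.6, 23.9, 22.7 and 23.7 CPM in LLC1-2, LLC1-3, LLC1-5 and LLC2-2 and 19.4, 15.9, 15.5 and 14.8 CPM in PBS1-1, PBS1-3, PBS2-1 and PBS2-5. All LLC1 mice were above all PBS mice and closely grouped. The difference was 1.44-fold, with a log2 fold change of 0.52 (SE 0.090, adjusted p = 0.00678), and it passed in all 20 other fits, with log2 values from 0.35 to 0.61. An antisense gene, Gm37759, shares 1309 bases with its exons, and has its own row in the table with at most 119 counts in a mouse, against 226 to 471 for Cacna1s. Without the strand of counting, the reads of the shared bases cannot be told apart. The 7 skeletal muscle markers had summed levels of 2.98 to 3.12 CPM in LLC1 mice and 2.83 to 4.14 CPM in PBS mice. Only 2 of the 7 had enough counts to be tested, and the part of skeletal muscle tissue in the level of Cacna1s was not tested. Per length, Cacna1c made up 86.4% ± 1.02 of the L-type pore subunits in LLC1 mice and 87.9% ± 1.15 in PBS mice (SD, n = 4 each), with an exact permutation p of 0.0857. Its share of the counts was 95.2% and 95.7%, so the share per length rests on the table's length for Cacna1c of 21191 bases.

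Of 66 other genes of cardiac calcium handling, 65 were found in the table and 63 were tested. None was called higher and 2 were called lower, 3.17% against the 8.73% of all genes, with a median log2 fold change of -0.016. At an unadjusted p under 0.05 there were 20 of 63, beside 4103 of 16111 genes.

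Both called genes belong to store release and store-operated entry. Itpr2, an inositol trisphosphate receptor of the SR and nuclear envelope, measured 28.6, 27.5, 25.8 and 32.1 CPM in LLC1-2, LLC1-3, LLC1-5 and LLC2-2 and 35.1, 36.7, 33.3 and 38.5 CPM in the PBS mice. Stim2, a sensor of the calcium level in the store, measured 12.04, 12.4, 11.2 and 11.8 CPM in the LLC1 mice and 14.6, 15.8, 13.3 and 16.9 CPM in the PBS mice. For both genes every LLC1 mouse was below every PBS mouse, at 0.794-fold for Itpr2 (adjusted p = 0.0287) and 0.781-fold for Stim2 (adjusted p = 0.0387). With offsets for gene length in each mouse neither was called. The log2 fold change was then -0.25 for Itpr2 (adjusted p = 0.0762) and -0.29 for Stim2 (0.0660), against -0.33 and -0.36 as reported. Stim2 also lost its call with all genes that had a count (-0.34, adjusted p = 0.0616). With 1 mouse left out Itpr2 passed in 4 of 8 fits (-0.40 to -0.29) and Stim2 in 2 of 8 (-0.42 to -0.30). Itpr1, Itpr3, Stim1, Orai1 and Orai3 of the same group were not called. Stim1 (log2 fold change 0.18, adjusted p = 0.190) and Orai3 (0.17, adjusted p = 0.142) were higher in every LLC1 mouse than in every PBS mouse. Of the 7 genes of the group 4 were positive and 3 negative, with a median of 0.049.

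The endothelial markers were also lower in sum in LLC1 mice, at 693 to 809 CPM against 781 to 1046 CPM in PBS mice, with 1 of 5 called lower, and the fibroblast markers were at 955 to 1065 CPM against 1061 to 1546 CPM, with 4 of 6 called lower. The smooth muscle and pericyte markers were at 679 to 752 CPM against 776 to 920 CPM, groups that did not overlap, with 0 of 4 called. That sum was mostly Rgs5, at 544 to 646 CPM against 625 to 718 CPM. Each of the 4 genes overlapped on its own, with log2 fold changes of -0.0030 (Tagln), -0.031 (Myh11), -0.21 (Rgs5) and -0.54 (Acta2). The macrophage markers were at 127 to 155 CPM against 119 to 202 CPM, with 0 of 5 called. The part of these cells in the levels of Itpr2 and Stim2 was not tested.

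The 5 genes with the lowest p among the rest came from the release complex and the T-tubule. Speg, a kinase of the junction, was at 1.18-fold (adjusted p = 0.0644), Hrc, the histidine-rich calcium-binding protein of the SR, at a log2 fold change of 0.20 (0.0777), and Tmem38a, the TRIC channel that balances SR charge, at 1.13-fold (0.0925). Bin1, which shapes T-tubules, was at 0.784-fold (0.0697), and Calm2, a calmodulin gene, at 0.870-fold (0.0839). Other fits of all mice called some of them: DESeq2 called Speg (adjusted p = 0.0245), Hrc (0.0212) and Tmem38a (0.0330), limma-voom called Speg (0.0499), and edgeR's likelihood ratio test called Bin1 (0.0474). Speg was also called with all genes that had a count (0.0482) and with length offsets (0.0178), Bin1 when scaled to cardiomyocyte markers (0.0256), and Calm2 in 4 of the planned fits (0.00769 to 0.0435). Reads of Calm2 may be shared with its near-identical copies Gm15720 and Gm7308. Hrc, Tmem38a, Bin1 and Calm2 had groups that did not overlap, as did 12 of the 63 genes in all, beside 17.2% of all genes tested, and Speg had PBS1-1 at 473 CPM among LLC1 mice at 467 to 508 CPM.

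By group, 4 of 5 junction and T-tubule genes were positive, with a median log2 fold change of 0.20, and the 12 genes of the release complex lay between -0.20 and 0.20. Tcap, named here after its value was seen, had the largest log2 fold change of the list, 0.55 (adjusted p = 0.142), with PBS mice spread from 593 to 1400.2 CPM. Tcap was called with the number before the hyphen in each mouse's code (1 or 2) as a term (0.78, adjusted p = 0.00892), without PBS2-5 (0.81, adjusted p = 0.0204) and with all genes that had a count (0.57, adjusted p = 0.0483), and was at 0.39 (adjusted p = 0.193) without PBS1-1. The SERCA regulators (4 tested) lay between -0.13 and 0.0030. The 10 channel subunits and inhibitors, the 15 kinases, anchors and phosphatases, the 8 mitochondrial transport genes and the 2 plasma membrane pumps held no call.

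**Figure D5:**
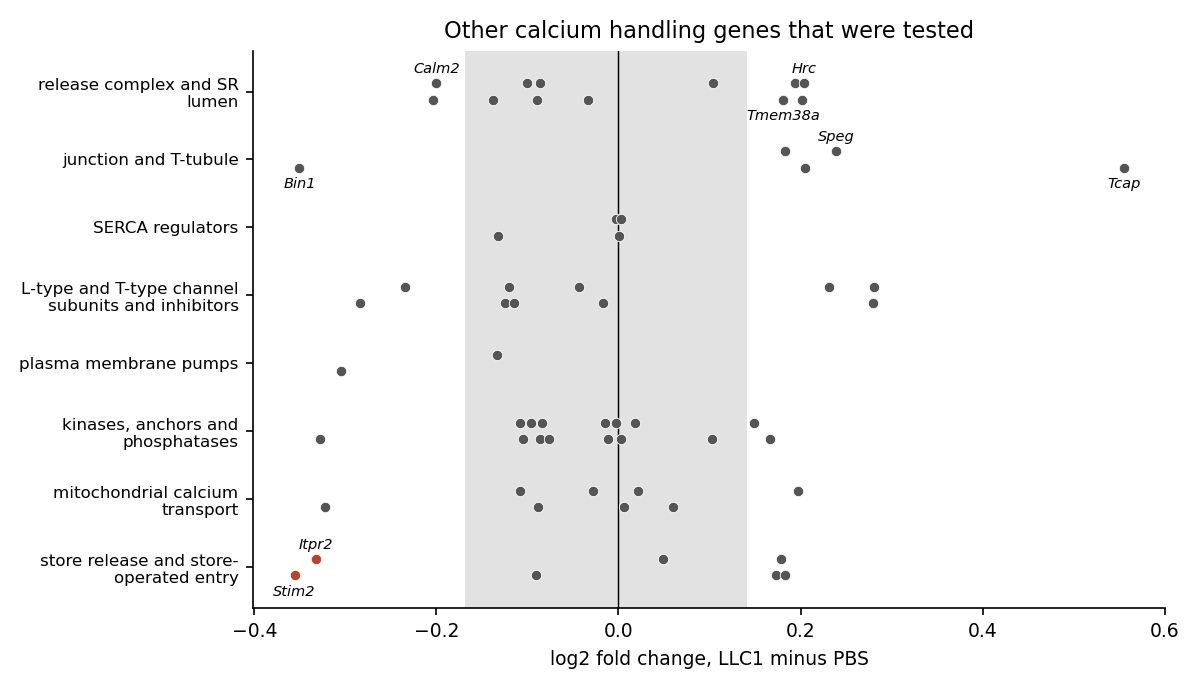
Log2 fold change, LLC1 minus PBS (x axis), of the 63 other calcium handling genes that were tested, by group, in red where the adjusted p was under 0.05, over a grey band from the 25th to the 75th percentile of all genes tested. The 2 red points, Itpr2 at -0.33 and Stim2 at -0.36, are in the store release and store-operated entry group.

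Without PBS1-1 the number of called genes on this list was 8 of 63, or 12.7%, near the 11.9% of all genes called in that fit, with 4 higher (Hrc, S100a1, Speg and Smdt1) and 4 lower (Bin1, Atp2b4, Itpr2 and Stim2). Without LLC1-2, LLC1-3, LLC1-5 or PBS1-3 none was called, and without LLC2-2 only Itpr2, in fits that called between 3.32% and 5.11% of all genes.

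For each tested gene the 3 genes with the most similar pattern were found by Pearson correlation of log2 CPM over the 8 mice, as a description of values that share libraries. Cacna1c was most like Crebl2 (r = 0.982), Cnksr3 (0.963) and Gm21969 (0.962), which were themselves called higher. Slc8a1 was most like Pon3 (0.984), RP24-540L1.1 (0.945) and Dlst (0.944). Ryr2 was most like Glrx2 (0.970), Tstd2 (0.963) and Fbxo4 (0.961), and Casq2 was most like Zfp296 (0.978), Otud3 (0.962) and BC068281 (0.962). Outside Cacna1c, none of the similar genes was called. This contrast is largely built in, because the difference between the groups is part of the patterns compared.

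Srl was most like Gm16033 (0.973), Reep5 (0.961) and Gm16034 (0.957), and Jph2 was most like Ube2b (0.987), Tm9sf2 (0.977) and Pigp (0.971). Atp2a2 was most like 4833418N02Rik (0.964), Dmxl2 (0.962) and BC025920 (0.961), Pln was most like Rfk (0.993), Tarsl2 (0.979) and Gm26885 (0.973), and Camk2d was most like Mfap3l (0.989), Pum2 (0.983) and Vps35 (0.981). Among the calcium handling genes themselves the most similar pair was Jph2 and Pln (0.897), both highest in PBS1-1, and the least similar was Srl and Cacna1c (-0.558).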

How the data were processed

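Ventricular mRNA of 8 mice, 4 injected with LLC1 cells and 4 with PBS, was sequenced by the authors from TruSeq RNA v2 libraries. The authors deposited raw read counts per gene, without normalization, and the submitters' processing notes name CASAVA, STAR, featureCounts and mm10. Their versions, the annotation and the strand setting are not given in the sources used here. Groups were taken from the stated treatment.

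Genes were kept by filterByExpr (16111 of 43346), scaled by TMM and compared with the quasi-likelihood test of edgeR 4.0.16 (R 4.3.3), with Benjamini-Hochberg adjustment over all genes tested and calls at 0.05. Levels are CPM, and log2 CPM used a prior count of 2. Exact two-sided permutation tests covered the 70 arrangements of the mice. Ratios are of the counts of a mouse, tested as differences of log2 CPM. Levels per length used the length in the table. Shared exons and lengths of the longest transcripts came from GENCODE M21, similar transcripts (97% identity over 150 bases) from BLAST 2.17.0, and promoters from RefSeq. Python 3.11.15, pandas 2.3.3, scipy 1.17.1 and matplotlib 3.10.9 were used, and the fits were tested on simulated counts.

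The alternatives were DESeq2 1.42.0, upper-quartile factors, total counts, scaling to 10 cardiomyocyte markers, other filters (any count, or 10 counts in every mouse), edgeR's likelihood ratio test and its robust fit, voom of limma 3.58.1, a term for the leading number of each mouse's code, length offsets (loess span 0.3) each mouse left out and, added after seeing the data, scaling to the 9 markers other than Ttn. The genes and lists were chosen with earlier results of these data known. Named were all 10 genes, the called genes of the wider list and the 5 with the lowest p among the rest, the paralogs, the 3 genes most like each gene, and marker lists as sums. 1 symbol of the wider list, Strit1, did not match the table, and 2 symbols were matched by gene ID. P-values measure the spread between mice, which the labels list as separate samples, and libraries held 12480706 to 19747596 counts.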

Additional observations from a re-analysis of the deposited data

Results flagged for a closer look

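In 64 groups of 4 values, 5 held a mouse whose gap to the nearest of the others, as a share of the range, was over Dixon's 95% limit, which chance alone passes in about 5% of such groups. PBS1-1 was the mouse in 4 of them. Its Ryr2 level was 3504 CPM against 2679 to 2805 CPM in the other PBS mice, and its Speg level was 473 CPM against 387 to 401 CPM. Its ratio of Pln over Atp2a2 was 0.396 against 0.318 to 0.327, and its summed cardiomyocyte markers were 118747 CPM against 107159 to 108386 CPM. Ttn alone, at 18482 CPM, made that last gap, since the sum of the other 9 markers was 100265 CPM against 98898 to 100078 CPM. LLC2-2 was the mouse in the remaining one, with a ratio of Srl over Casq2 of 1.48 against 1.436 to 1.442 in the other LLC1 mice, which were nearly equal to each other.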

How the results depend on the processing

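The call of Cacna1c, the only one of the 9 genes as reported, was kept under 9 of 11 other fits of all mice planned, while 0 genes were called with total counts only and 2 others, Ryr2 and Srl, when scaled to cardiomyocyte markers, or 4 when scaled to those other than Ttn, added after seeing the data. Leaving out 1 mouse gave between 0 and 2 called genes. Of the wider list, 2 genes were called as reported, 5 with DESeq2, 3 with length offsets (Calm2, Speg and Cacna1g, with neither Itpr2 nor Stim2), 8 when scaled to cardiomyocyte markers, 17 with those other than Ttn and 6 with the first number of the code as a term, and between 0 and 8 with 1 mouse left out. Over all genes, 1406 calls (663 higher, 743 lower) became 1018 (225 and 793) with total counts, 2406 (173 and 2233) when scaled to cardiomyocyte markers, 3975 (183 and 3792) with those other than Ttn, 1757 with DESeq2, 1681 with the code term, 1594 with length offsets and between 542 and 1949 with 1 mouse left out. The share of the wider list called was 3.17% against 8.73% of all genes as reported, 7.94% against 10.9% with DESeq2, 4.76% against 9.89% with length offsets, 12.7% against 14.9% with the markers, 27.0% against 24.7% with those other than Ttn and 9.52% against 10.4% with the code term. These scalings moved the median of all genes from -0.010 to -0.065 (total counts), -0.14 (markers) and -0.19 (markers other than Ttn). Jph2 (-0.0096), Atp2a2 (-0.042) and Pln (-0.096) with the markers and Pln with total counts (-0.015) were below 0 but above that median, as were Jph2 (-0.059), Atp2a2 (-0.083), Pln (-0.14) and Slc8a1 (-0.046) with the markers other than Ttn, and Pln was at -0.017 without PBS2-5. With 1 mouse left out, the log2 fold change of Pln ran from -0.017 to 0.091 and that of Jph2 from 0.050 to 0.23 (past the threshold without PBS1-1). That of Slc8a1 ran from 0.043 (without LLC1-5) to 0.20, Camk2d from -0.18 to -0.056, Casq2 from -0.11 to -0.0064 (without PBS1-3), Ryr2 from -0.25 to -0.071, Srl from -0.22 to -0.13 and Atp2a2 from 0.053 to 0.13, with no call. The log2 ratio of Pln over Atp2a2 ran from -0.10 to 0.022, positive without PBS1-1, Casq2 over Ryr2 from 0.026 to 0.20, Jph2 over Ryr2 from 0.25 to 0.35, Srl over Casq2 from -0.14 to -0.079, Cacna1c over Slc8a1 from 0.048 to 0.20 and Camk2d over Ryr2 from 0.029 to 0.13. With the longest transcripts 7 of the 10 genes kept their rank by level. The causes were not tested.

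No paired analysis was possible because the groups share only 1 replicate code (1-3), carried by different animals. Sln had too few counts to be tested.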
